A study of Mus musculus with 6 samples.

Results

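The 10 genes of the E protein, ID protein and TAL1 network (Tcf3, Tcf4, Tcf12, Id1, Id2, Id3, Lyl1, Tal1, Lmo2 and Hhex) were followed in a table of ATAC-seq regions that compares Cebpa/Cebpb double knockout (dKO) with WT cells. The regions were chosen by position: each listed region that overlapped the annotated body of one of these genes, or the 50 kb on either side of it, was taken. This gave 15 of the 10016 listed regions, at 7 of the 10 genes. Of all protein-coding genes, 47.5% had a listed region in such a window. Tal1, Lmo2 and Hhex had none. The table holds only regions that the authors' comparison had passed as changed, and the genes were selected on that same comparison, so the changes below are a description and carry no test.

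ATAC-seq measures how many DNA fragments the Tn5 transposase cuts from a region, and more reads mean more open chromatin. All cells came from mouse fetal liver, had been transformed with the fusion oncogene MLL-ENL and were grown with interleukin 3 (IL-3). The 2 WT libraries are labelled wild-type, and no vector is named for them. By the study's methods these lines came from mice with floxed Cebpa and Cebpb alleles. The 2 dKO libraries are from cells without Cebpa and Cebpb, which encode C/EBPα and C/EBPβ, and carried a GFP vector. The dKO lines were single clones after Cre deletion, so genotype, vector and clone cannot be told apart. The 2 libraries of dKO cells with the rat C/EBPβ isoform LAP* were not analysed here.

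E proteins are basic helix-loop-helix (bHLH) transcription factors that bind the E-box, a short DNA site, as dimers. Tcf3 encodes E2A, Tcf4 encodes E2-2 and Tcf12 encodes HEB, and in blood they are best known from B cell, plasmacytoid dendritic cell and T cell development, respectively. ID proteins have the helix-loop-helix but no basic part, so they pair with E proteins and keep them from DNA. TAL1 and LYL1 are tissue-restricted bHLH factors that bind DNA with an E protein partner, LMO2 bridges such dimers to LDB1 and GATA factors, and HHEX is a homeobox factor of early blood and endothelial cells.

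Each region has 1 level per group, the authors' log2 mean of normalised reads over its 2 libraries. The table has no value per library, and therefore no SD. A change is the dKO level minus the WT level on the log2 scale. The lowest level that occurs, -0.15, was taken as 1 read per library, and 3 reads per library then correspond to a level of 1.43. Where a group lay at or under that floor, the fold is given as a bound against it, which covers counting error only. ATAC-seq on a bulk culture cannot tell apart a region that opened further in each cell from one that was open in more of the cells.

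The deleted genes went with their labels. The listed region over Cebpa had a level of 9.99 in WT and of -0.15 in dKO, which is at least 376-fold lower. Of the regions at Cebpb, one went from 8.60 to 3.37 and the other from 7.38 to -0.15. Deleted DNA gives no reads, so at the levels of -0.15 a loss of the DNA and a closing of chromatin cannot be told apart. The Cebpb region at 3.37 in dKO kept reads above the floor, and how much of it was deleted was not tested. The labelled cell type could not be checked, because a table of changed regions does not show which markers were open in both groups. Of 8 progenitor and myeloid marker genes, 6 had listed regions (Kit, Cd34, Mpo, Itgam, Csf1r and Ly6c2), and 15 of their 16 regions were higher in dKO. Over the whole table, 47.5% of protein-coding genes had a listed region within 50 kb and 60.3% of listed regions were higher. The myeloid markers Itgam, Csf1r and Ly6c2 had 4, 3 and 3 regions, all higher. The study reports less CD11b (Itgam) and Ly6C staining and lower Csf1r expression in dKO, so these higher regions do not stand for higher expression. Whether the maturation state of the cells had a part in the values below was not tested.

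Of the 15 regions at the network genes, 12 were higher and 3 were lower in dKO. Among all listed regions, 60.3% were higher and 39.7% were lower. At least 2-fold higher were 11 of the 15, against 49.6% of all listed regions, and 1 was at least 2-fold lower, against 35.9%. The median change was 1.76 at the network genes and 0.98 over the table. Tcf4 alone held 7 of the 15 regions. The other genes together held 8, of which 5 were higher and 3 lower, with a median change of 0.93. Most of the higher regions were therefore those of Tcf4.

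By role, the E protein genes had 9 regions, 8 higher and 1 lower, with a median change of 2.22. Tcf4 held 7 of these 9, and the other 2 were the Tcf3 region, with a change of -1.77, and the Tcf12 region, with 1.43. The ID genes had 3, all higher, with a median of 1.23. The bHLH gene Lyl1 had 3, of which 1 was higher and 2 lower, with a median of -0.89. No change between -0.51 and 0.49 was listed anywhere in the table. A gene without a region may be open to the same degree in both groups, or closed in both. It may also have changed without passing the authors' comparison, so its state is not known here.

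**Figure D1:**
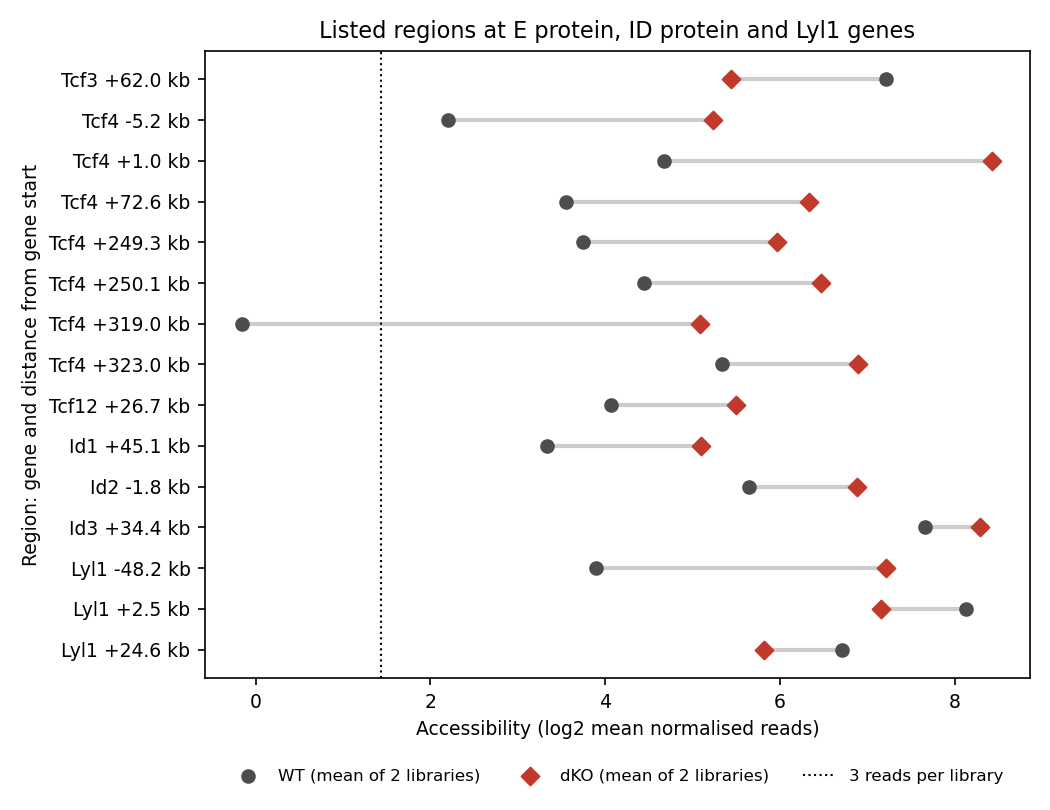
Level of each of the 15 listed regions in WT (grey circles) and dKO (red diamonds), each the mean of 2 libraries as deposited, on a log2 axis of normalised reads. Regions are named by gene and by the distance of their centre from the gene start, the dotted line marks 3 reads per library, and only the Tcf3 region and 2 of the 3 Lyl1 regions have the dKO point to the left of the WT point.

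Tcf3 (ENSMUSG00000020167.14; mm10 chromosome 10, 80409514 to 80433647, minus strand) had a single listed region, and it was lower. The region (80371351 to 80372029, 679 bp) had a level of 7.21 in WT and of 5.44 in dKO, or 148 against 43.4 normalised reads. This was a change of -1.77, 3.41-fold lower, and the largest fall at any network gene. It lies 37485 bp beyond the 3′ end of Tcf3, over exons of the noncoding genes Gm15123 and Gm15124. The nearest start of a protein-coding gene is that of Mex3d, 9958 bp away, and the window holds 4 protein-coding genes other than Tcf3, so the position alone does not tie the region to Tcf3. No listed region lay in Tcf3 itself or at any of its 11 annotated start sites. The next region beyond the window, 92.2 kb past the 3′ end in an untranslated exon of Apc2, was higher, from 4.45 to 6.37. Of all listed regions, 21.4% had a change at least as low as this one. The central 200 bases (GRCm38.p6 chromosome 10, 80371591 to 80371790, plus strand) are shown because this was the strongest fall and holds an E-box (CANNTG), given in capitals, and no C/EBP site.
Tcf3 downstream region: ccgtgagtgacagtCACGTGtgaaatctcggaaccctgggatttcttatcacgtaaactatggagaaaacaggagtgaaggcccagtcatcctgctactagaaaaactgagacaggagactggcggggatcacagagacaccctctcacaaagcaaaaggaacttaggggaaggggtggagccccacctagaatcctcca

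Tcf12 (ENSMUSG00000032228.16; chromosome 9, 71842688 to 72111871, minus strand) also had 1 region, and it was higher. It lies in an intron (72084998 to 72085286), 26.7 kb into the gene and 24438 bp from the nearest annotated Tcf12 start. Its level was 4.07 in WT and 5.50 in dKO, a change of 1.43 or 2.69-fold. Within the 269.2 kb body of Tcf12 no other region was listed, whereas Tcf4, with a body of 345.7 kb, held 6. Beyond the window, a pair of regions 84.9 kb and 85.4 kb past the 3′ end of Tcf12, in an intron of Cgnl1, had changes of 1.34 and 2.22.

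Tcf4 (ENSMUSG00000053477.17; chromosome 18, 69343356 to 69689079, plus strand) was higher in dKO at all 7 of its regions, each at least 2-fold. The median change was 2.78. The window holds no other protein-coding gene. In WT, 6 of the 7 regions lay below the median WT level of the table, 5.31. In dKO, 5 of the 7 lay above the median dKO level, 5.59.

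The most open of them in dKO covers the promoter (69344032 to 69344651), 985 bp inside the gene start, where 4 start sites of 5 coding transcripts are annotated. Its level was 4.67 in WT and 8.43 in dKO, or 25.5 against 345 normalised reads. The change of 3.76 is 13.5-fold, and it ranked at place 231 from the top of the 10016 regions. Its dKO level was at the 97.3 percentile of the table. An upstream region, centred at -5.23 kb from the gene start (69337954 to 69338292) went from 2.20 to 5.24, a change of 3.04 or 8.22-fold. The upstream region stayed below the median dKO level of the table.

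Regions further along the gene were also higher. A region of 961 bp at 72.6 kb (69415454 to 69416414), with 1 annotated start site, went from 3.55 to 6.33, a change of 2.78 or 6.87-fold. Neighbouring regions at 249.3 kb and 250.1 kb lie at an internal cluster of start sites. The first (69592347 to 69592926), in an intron 62 bp from a start site, went from 3.75 to 5.97, a change of 2.22. The other (69593174 to 69593737) covers 7 start sites of 9 transcripts and went from 4.45 to 6.47, a change of 2.02. These internal starts give shorter Tcf4 transcripts, and ATAC-seq does not say which of them are used.

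Toward the 3′ end, an intronic region of 210 bp at 319.0 kb (69662213 to 69662422) had the largest difference of deposited levels at any network gene. Its WT level was -0.15, the lowest in the table, and its dKO level was 5.08. The deposited levels differ by 5.23, but the WT value lies under the floor, so the region was at least 12.5-fold higher in dKO, and its rank against the promoter, at 13.5-fold, is not settled. Over the table, 46 regions had a WT level this low. The intronic region at 323.0 kb (69666108 to 69666550) had the highest WT level of the 7, 5.34, and the smallest change, 1.55 or 2.93-fold, to 6.89 in dKO.

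**Figure D2:**
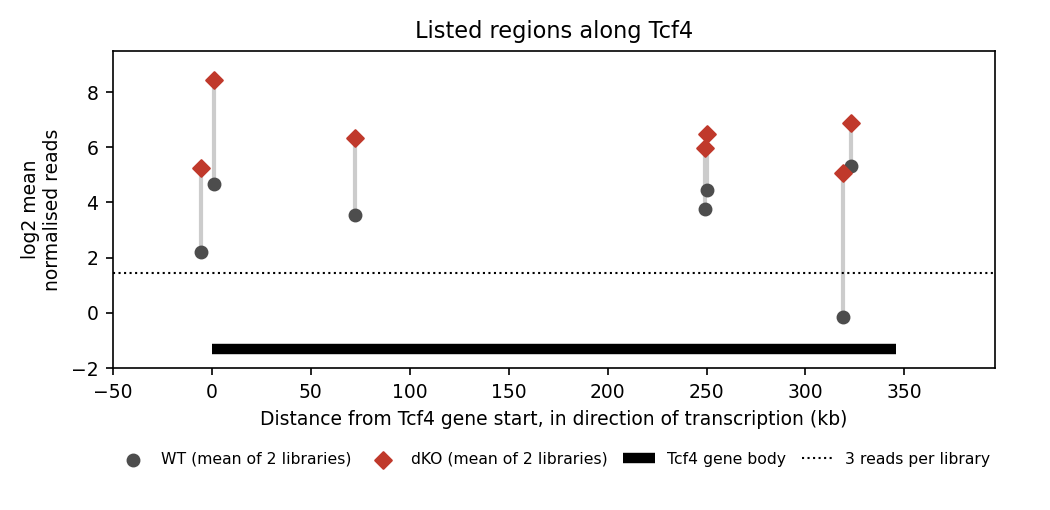
Level of the 7 listed Tcf4 regions in WT (grey circles) and dKO (red diamonds), in log2 mean normalised reads, against the distance in kb from the gene start. The black bar is the gene body and the dotted line 3 reads per library, and every dKO point lies above its WT point, from a change of 1.55 at 323.0 kb to 3.76 at the promoter and to a WT value under the floor at 319.0 kb.

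Long genes collect more regions, so the count at Tcf4 was set beside other genes. Of 21755 protein-coding genes, 47.5% had a listed region in the same kind of window, and 0.584% (127 genes) had 7 or more. All regions pointed upwards at 52 of these 127 genes and downwards at 16. Among the 567 genes with a body of at least 300 kb, the median was 1 region, 27 genes had 7 or more, and 6 of those 27 were higher throughout. Per length, Tcf4 had 15.7 regions per Mb of window, the other network genes together 6.41 and the genome 3.80. Tcf4 was not the densest network gene, because Lyl1 had 2.91 regions per 100 kb of its short window against 1.57 at Tcf4. Higher regions made up 63.2% of those on the same chromosome, close to the share of the whole table. This share differed by chromosome, from 44.8% on that of Lyl1 to 82.0% on that of Tcf3. Outside the window, the next regions upstream lay at 190.2 kb and 231.5 kb, with Tcf4 as their nearest protein-coding start, and had changes of 1.97 and 2.62. Start sites were covered by 3 of the 7 Tcf4 regions, and by 11.5% of all listed regions, but Tcf4 has 58 annotated start sites, against 1 to 20 at the other network genes.

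The 3 ID genes are short, and none had a listed region over its body or within 1 kb of its start. Id2 came closest. Its region (chromosome 12, 25098724 to 25099056) lies 1584 bp upstream of the Id2 start (ENSMUSG00000020644.9; 25093799 to 25097140, minus strand) in intergenic sequence. The level was 5.65 in WT and 6.88 in dKO, a change of 1.23 or 2.35-fold. Its GC content was 73.3%, the highest of the 15 regions, against a median of 49.0% over the table. The region is neither within 1 kb of a start nor among the largest changes, so its sequence is outside the rule for the sequences shown. The central 200 bases (25098791 to 25098990, plus strand) are shown as the ID gene sequence nearest to a start site, with its 1 E-box, CAGCTG, in capitals.
Id2 upstream region: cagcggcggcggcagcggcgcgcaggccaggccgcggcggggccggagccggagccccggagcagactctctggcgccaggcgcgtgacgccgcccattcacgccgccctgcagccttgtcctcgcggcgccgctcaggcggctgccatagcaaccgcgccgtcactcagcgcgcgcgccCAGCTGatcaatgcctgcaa

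Upstream of Id2, 6 further regions at 58.3 kb to 333.8 kb have Id2 as their nearest protein-coding start. Of these, 4 were higher, with changes from 0.99 to 1.79, and 2 were lower, with -1.42 and -1.01. The nearest, at 58.3 kb, went from 3.62 to 5.36.

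The regions near Id1 and Id3 lie in other genes. Id1 (ENSMUSG00000042745.9; chromosome 2, 152736251 to 152737410, plus strand) had a region 45.1 kb downstream of its start (152781120 to 152781589), in an untranslated exon of Bcl2l1, a gene that protects cells from apoptosis. Its level went from 3.34 to 5.10, a change of 1.76 or 3.39-fold. The next region, 189.6 kb downstream of Id1, had a change of 2.39. Id3 (ENSMUSG00000007872.3; chromosome 4, 136143497 to 136145755, plus strand) had a broad region of 972 bp, 34.4 kb downstream of its start (136177394 to 136178365). That region lies in an intron of E2f2, an E2F cell cycle factor, 2418 bp from the E2f2 start. It was open in both groups, at 7.66 in WT and 8.29 in dKO, and its change of 0.63 or 1.55-fold was the smallest of the 15. Relative to the median change of the table, 0.98, its change was -0.35. The next region on that side, 60.3 kb past Id3 in Asap3, was lower in dKO, with a change of -0.90.

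Lyl1 (ENSMUSG00000034041.4; chromosome 8, 84701457 to 84704715, plus strand) was the network gene with regions in both directions in its window, which holds 5 other protein-coding genes. The first region (84703761 to 84704168) overlaps exon 4 of 4, which encodes the bHLH part of the protein, 2304 bp from the only annotated start. It was the most open of the 15 in WT, at 8.13, and had 7.16 in dKO, a change of -0.97 or 1.96-fold lower. The annotation also places it in an intron of Nfix. A second region 24.6 kb downstream of the start, in introns of G430095P16Rik and Nfix, went from 6.71 to 5.82, a change of -0.89 or 1.85-fold lower. The third, in intergenic sequence with its centre at -48.2 kb from the start (84652977 to 84653569), went the other way, from 3.90 to 7.21. This change of 3.31 is 9.92-fold, and its nearest protein-coding start is that of the immediate early gene Ier2, 9283 bp away. Farther upstream, 99.7 kb from Lyl1 in a coding exon of Cacna1a, a region had 4.95 in WT and 1.86 in dKO. With the gene body alone, with 10 kb flanks or by nearest protein-coding start, Lyl1 kept 1 region, the lower one in its coding exon. The region at -48.2 kb was also the one closest to the edge of any window, with a gap of 47.9 kb to Lyl1. The first region beyond an edge, 54.5 kb from Hhex, had a change of 0.69.

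The central 200 bases of the upstream and the coding Lyl1 region are shown in genome order, because they hold opposite changes within one window. Windows are at 84653174 to 84653373 and 84703865 to 84704064 (GRCm38.p6 chromosome 8, plus strand). Capitals mark an E-box in the first and nothing in the second, which holds no E-box or C/EBP match. The second runs from the last intron into the coding exon and is outside the rule for the sequences shown, which asked for an E-box or C/EBP match.
Lyl1 upstream region: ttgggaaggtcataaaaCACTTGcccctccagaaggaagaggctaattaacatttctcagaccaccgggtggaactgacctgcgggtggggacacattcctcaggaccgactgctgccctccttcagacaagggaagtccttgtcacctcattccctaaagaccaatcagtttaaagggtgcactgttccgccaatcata
Lyl1 coding region: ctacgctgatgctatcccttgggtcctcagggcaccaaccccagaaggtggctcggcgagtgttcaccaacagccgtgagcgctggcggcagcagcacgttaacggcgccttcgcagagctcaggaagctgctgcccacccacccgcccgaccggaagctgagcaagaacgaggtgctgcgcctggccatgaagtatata

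Tal1, Lmo2 and Hhex had no listed region within 50 kb. For Tal1 (chromosome 4, 115056426 to 115071755) the nearest one was 913.3 kb away, in an intron of Faah, and 4.49% of protein-coding genes were as far or farther from a listed region. For Lmo2 (chromosome 2, 103957986 to 103981878) it was 226.8 kb away in an intron of Nat10, with levels of 5.45 in WT and 2.85 in dKO, and 19.7% of genes were as far or farther. The median gene lay 56.1 kb from a listed region. Hhex (chromosome 19, 37434810 to 37440731) was near this median, and 3 regions lay between 54.5 kb and 94.3 kb past its 3′ end, all higher in dKO. The middle one went from 1.33, under the floor, to 4.82, at least 10.4-fold higher, and its nearest protein-coding start is that of Exoc6.

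**Figure D3:**
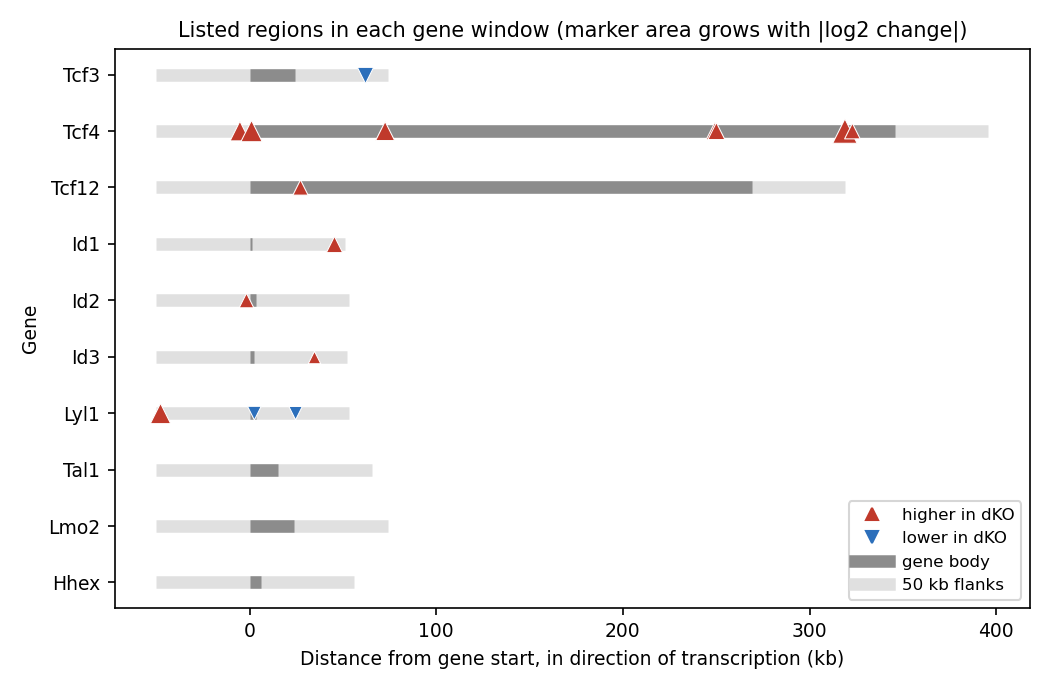
Position of the listed regions in the window of each of the 10 genes, as distance from the gene start in kb along the direction of transcription; dark bars are gene bodies and light bars the 50 kb flanks. Red triangles are regions higher in dKO, blue triangles regions lower in dKO, and marker area grows with the absolute log2 change; 7 of the 12 red triangles are at Tcf4, and the windows of Tal1, Lmo2 and Hhex are empty.

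The 15 regions were 210 to 972 bp wide, with a median of 470 bp against 400 bp in the table. Repeat-masked bases were absent from the central 200 bp of 7 of them, and from 45.6% of all listed regions. The E-box was then searched for, since it is the site that E proteins and their partners bind. In the central 200 bp and on both strands, CANNTG was present in 9 of the 15 regions (60.0%) and in 68.6% of all listed regions. The form CAGCTG, which is part of CANNTG, was in 4 of the 15 and in 15.6% of all, and CAGGTG in 1 and in 9.90%. The C/EBP letters TTGCNNAA or TTACNNAA were in 2 of the 15, the Tcf4 region at 249.3 kb and the downstream Lyl1 region, and in 28.4% of all. Of all listed regions that were lower in dKO, 40.8% held a C/EBP match, and of those that were higher, 20.1%. The GATA letters (AGATAA or TGATAA) were found in the Tcf3 region alone, and in 13.0% of all listed regions. The RUNX letters AACCACA were in the Id3 region alone, against 11.9% of all. PU.1 was matched by GAGGAAGT in the Tcf12 intron alone, against 9.22%. The AP-1 letters TGAGTCA or TGACTCA occurred at the Tcf4 promoter alone, against 17.9% of all and 26.7% of the higher regions. A match says only that these letters are there.

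**Figure D4:**
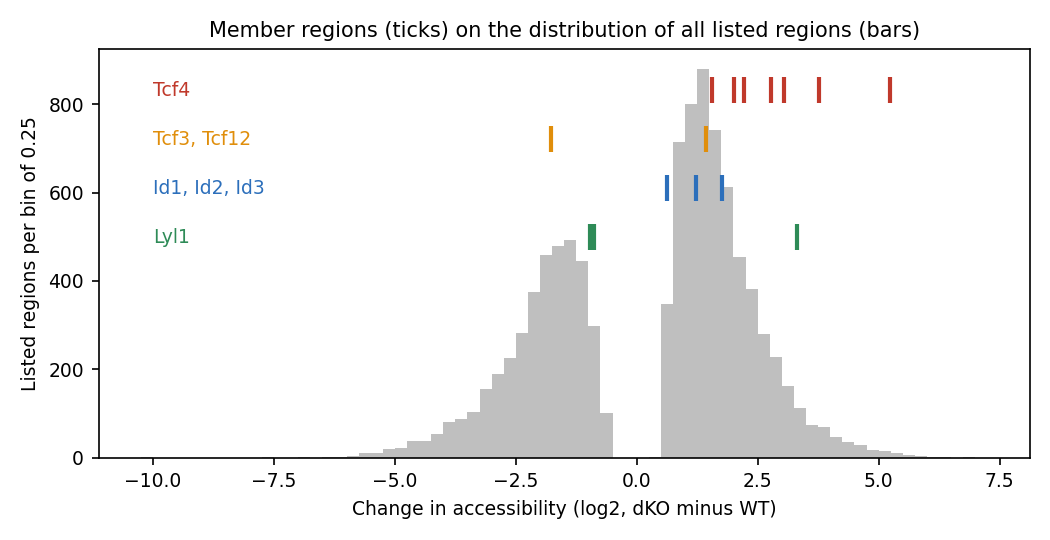
Number of listed regions per bin of 0.25 against the log2 change, dKO minus WT (grey bars, 10016 regions), with the changes of the 15 network regions as ticks in rows by gene. The gap around 0 holds no listed region, the 7 Tcf4 ticks lie from 1.55 to 5.23 (the highest with WT under the floor), and the Lyl1 ticks lie on both sides of the gap.

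Other genes of the pathway were taken from 3 lists, with the same windows. Their counts stand beside 47.5% of protein-coding genes with a listed region and, among all listed regions, 60.3% higher (49.6% at least 2-fold) and 39.7% lower (35.9% at least 2-fold). Genes of complex partners and corepressors had 9 regions at 5 of 12 genes, 7 higher (77.8%) and 2 lower (22.2%), with a median change of 1.43. The largest rise was in an intron of Ssbp2, which encodes a partner of LDB1, from 2.27 to 7.16 or 29.7-fold. The largest fall was in an intron of the related Ssbp3, from 4.51 to 0.84, at least 8.43-fold lower. Related HLH and LIM-only genes had 12 regions at 7 of 13 genes, 3 higher (25.0%) and 9 lower (75.0%), all at least 2-fold, with a median change of -2.22. Their largest rise was near Id4, another ID gene, from 2.66 to 5.51. The largest fall in that list lay in the window of Mesp1 but in an intron of Anpep, from 4.75 to 0.43, at least 9.95-fold lower. Named after their values were seen, the 4 regions at Lmo1, which encodes a LIM-only relative of LMO2, had changes from -2.61 to -1.61.

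Target genes of E proteins in lymphoid and other blood cells had 21 regions at 12 of 15 genes, 13 higher (61.9%) and 8 lower (38.1%), with a median of 1.01. The largest rise was in the window of Cdkn1a, the gene of the cell cycle inhibitor p21, from 1.96 to 5.83. The largest fall was in an intron of Pax5, a B cell factor, from 4.71 to 1.16, at least 9.68-fold lower. Over the 3 lists together, 23 of 42 regions were higher (54.8%) and 19 lower (45.2%), with a median of 0.90, against 0.98 in the table.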

How the data were processed

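ATAC-seq libraries were prepared from 50000 cells each, grown with 10 ng/ml IL-3 per the labels. Per the submitters' processing notes and the study's methods, the authors aligned reads to mm10 with Bowtie2, called peaks with MACS2 and compared groups with DiffBind 2.14.0. The deposited table holds log2 values: the authors' mean normalised reads for WT, for dKO and for all 4 libraries. It also holds their fold change, p-value and false discovery rate, which were not used. The study's methods state an average read number over libraries only. Depth per library, duplicate handling and the Tn5 offset are not given in the sources used here, and duplicates that were kept would raise strongly amplified regions. Both files were identical, so 1 table was used and dKO-LAP* was not analysed here.

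Regions were assigned to genes by overlap of at least 1 base with the GENCODE M21 gene body and 50 kb flanks, on the authors' mm10 coordinates. Distances along a gene are from its start to the region's centre. Sequences came from RefSeq's GRCm38.p6. The sequences of the Tcf4 regions and of the downstream Lyl1 region are not reported here. No test was run, since the table has group means of 2 libraries and was itself the source of the choice of genes. The scripts were tested on simulated data and used Python 3.11.15, numpy 2.4.6, pandas 2.3.3 and matplotlib 3.10.9. The genes, lists and windows were chosen with earlier results of these data known. All 10 genes were named, with every region at a promoter, inside a body or with the largest change at its gene, and the largest rise and fall of each pathway list. Sequences were to be shown for promoter regions and those with the largest changes that held an E-box or C/EBP match, outside untranslated exons. Alternatives were the gene body alone, flanks of 10 kb and 100 kb, the nearest protein-coding start, a minimum level, centring on the table's median, other motif windows and, added after the data were seen, leaving out Tcf4.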

Additional observations from a re-analysis of the deposited data

How the results depend on the processing

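No paired analysis was possible because each group has 1 mean and no value per library, and for the same reason leaving out a replicate was not run. Of 72 alternative counts and medians, 34 stayed close to the values given (counts within 1.5 times, medians within the 0.01 rounding of the levels) and 38 moved. With the gene body alone, 8 regions remained in the windows, 7 higher and 1 lower, 7 at least 2-fold higher and 0 at least 2-fold lower, with a median change of 2.12. With 10 kb flanks, 1 was lower and 0 at least 2-fold lower, with a median of 2.12. With 100 kb flanks there were 24 regions, 19 higher and 5 lower, 2 of them at least 2-fold lower, with a median of 1.65. By nearest protein-coding start, 2 were at least 2-fold lower. Requiring more than 3 reads per library in both groups gave a median of 1.66, and a mean level above the lower quartile gave 1.49. Centring on the table's median gave 7 regions at least 2-fold higher, 3 at least 2-fold lower and a median of 0.78, and it turned the Id3 change to -0.35. The Tcf4 region starting at 69666108 then had 0.57, so Tcf4 was no longer at least 2-fold higher throughout. The Tcf12, Id1 and Id2 regions had 0.45, 0.78 and 0.25. Without Tcf4, an alternative added after the data were seen, 8 regions were left, 5 higher and 4 at least 2-fold higher, with a median of 0.93.

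For the pathway lists, the gene body alone gave 12 regions, 6 higher and 6 lower. Flanks of 10 kb gave 15, 7 higher and 8 lower, and flanks of 100 kb gave 62, 31 higher and 31 lower. In the central 100 bp the E-box matched 5 of the 15 network regions, GATA 0 and AP-1 0. Over all listed regions these shares were 43.8%, 7.02% and 11.5%. In whole regions CAGGTG matched 5, GATA 4, PU.1 2 and AP-1 2. Over all listed regions the whole-region shares were 24.2%, 28.2%, 13.2% and 25.3%. The moves came with the window, the set of genes, the level filter or the centring taken. Depth is not known for each library, and group means without replicate error do not show how far the libraries of a group differ, so small changes such as that near Id3 rest on the authors' own selection.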
